A study of Mus musculus with 6 samples.

Results

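The genes described here are those of interleukin 1, interleukin 6 and tumour necrosis factor (TNF), inflammatory signals that were measured in mouse testis after heat. The members are 10 genes, taken by name from the scanner tables, and 7 of them are among the 25276 genes tested over the whole array. They are the interleukin 1 family ligands Il1a, Il1b, Il18 and Il33, the antagonist Il1rn, the receptors Il1r1 and Il1r2, then Il6, its receptor Il6ra, and Tnf. Each has 1 probe design, with 10 spots per array for Il1b and Tnf, 2 for Il6 and 1 for each of the others. The other members, Il1rn, Il6 and Tnf, did not pass the filter on dim probes. Il1a passed only because it was measured in 1 of the strains.

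The mice of interest were B6.MRLc1-(D1Mit202–D1Mit403), shortened here to B6.MRLc1, a congenic line with a telomeric piece of MRL chromosome 1, between 67.97 and 81.63 cM, on a C57BL/6 background. They were set against C57BL/6 (B6) mice, labelled wild type. The mice were males of 3 months, kept free of specific pathogens. There were 3 testes of each strain, each taken here as coming from a different mouse. In both strains the scrotum had been heated once, at 43 °C and for 20 min, and whole testes were taken 10 days later. Unheated testes were not analysed here, and all values are from heated testes. The study's title concerns calcification in the heated testis, and its design compares the strains at this time point.

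Interleukin 1 alpha and beta bind the receptor encoded by Il1r1, which signals to the transcription factor NF-kappaB, whereas the product of Il1r2 is a decoy that binds the ligand without signalling, and the product of Il1rn blocks the receptor. Interleukin 6 acts through its receptor alpha chain, Il6ra, together with the shared chain Il6st. TNF is released mainly by activated macrophages. In the testis, macrophages, Sertoli cells and Leydig cells are known sources of these cytokines, which can act on germ cells and on the barrier between blood and seminiferous tubules.

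The values are log2 signals relative to the 75th percentile of each array, so that 0 is the signal at that percentile. On the B6.MRLc1 arrays 58.0% to 64.7% of the spots were flagged by the scanner software as well above background, against 68.6% to 69.0% on the B6 arrays, and no spot was saturated. All arrays lay on 1 slide, the B6.MRLc1 arrays in one row and the B6 arrays in the other, and the effects of row and strain cannot be told apart. Each sample was whole testis, in which fewer cells of a type and less RNA per cell cannot be told apart. Of the testis markers tested, all 10 Sertoli, 7 Leydig and 6 peritubular myoid genes were well above background on all 6 arrays. Of 12 spermatid markers 7 were so, and 11 were well above it on at least 1 array of each strain.

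The first 30 bases of the 60-base probes are shown for the members on which the results turn, since each value below is the signal of 1 such sequence. Positions are those of the array annotation in build mm9, and all letters are in lower case because no base is singled out.
Il1r2: ttgatccagtcacaagggaggatctgcata
Il1r1: tacttagatttcaccgtactttctgatggt
Il6ra: aggaccaagtgcagtaacggtagcccaaac
Il33: gtgaatctgtacgatatctttaaagtagta
Il1a: aatgccagttgagtaggataaaggtataag
Il1b: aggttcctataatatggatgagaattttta
Tnf: tgggctttccgaattcactggagcctcgaa
The whole probes lie on chr1:40180014-40180073 (+) for Il1r2, chr1:40372667-40372726 (+) for Il1r1, chr3:89674054-89674113 (-) for Il6ra and chr19:30035101-30035160 (+) for Il33. Those of the other ligands lie on chr2:129125994-129126053 (-) for Il1a, chr2:129190347-129190406 (-) for Il1b and chr17:35336795-35336854 (-) for Tnf. The position of each probe within exons and untranslated regions was not analysed here. The chromosome segment of the congenic strain is given in cM by the labels and was not converted to these positions.

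The receptor members Il1r1, Il1r2 and Il6ra had lower values on every B6.MRLc1 array than on any B6 array, although none passed the adjusted threshold. Of other receptor chains, Il1rap and Il6st overlapped between strains, each with a difference of -0.08 (limma adjusted p = 0.801 and 0.543). Among the ligands, Il1a was the 1 member called lower in B6.MRLc1, at a signal near background. Il33 and Il1b were higher on B6 arrays 1 and 2 than on any B6.MRLc1 array, but B6 array 3 lay within the B6.MRLc1 range. Il18 values overlapped between the strains. Il6 and Il1rn were not well above background on any array, and Tnf was so only on B6 arrays 1 and 2.

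**Figure D1:**
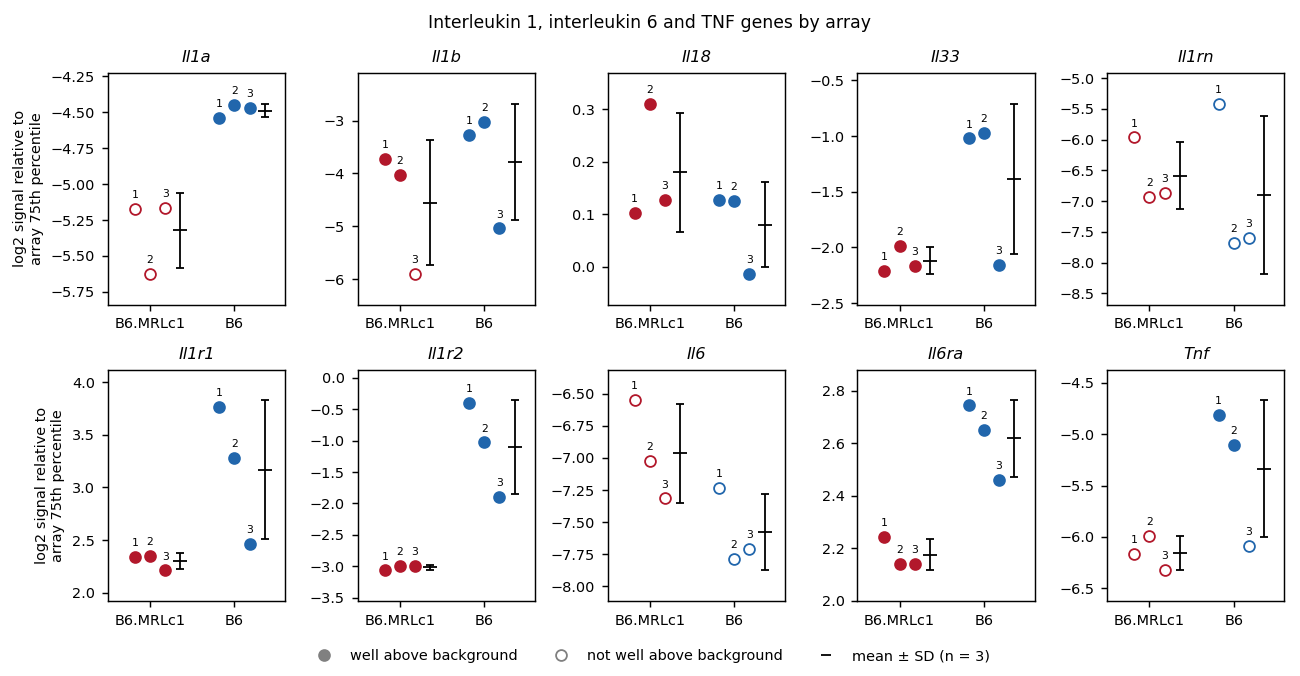
Log2 signal over that of the array's 75th percentile (vertical axis, own scale in each panel) of the 10 members on the 3 B6.MRLc1 arrays (red, left) and the 3 B6 arrays (blue, right), numbered by replicate. Open circles are values not well above background, and black bars are the mean ± SD of 3 arrays. For Il1r1, Il1r2, Il6ra and Il1a every B6.MRLc1 value lies below every B6 value, and B6 array 3 is the lowest B6 array for Il1b, Il18, Il33, Il1r1, Il1r2 and Il6ra.

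Of the 7 members tested, limma called 1 gene, Il1a, at a Benjamini-Hochberg adjusted p under 0.05, and it was lower in B6.MRLc1. Over all 25276 genes tested the calls came to 2.63%, made up of 2.22% lower and 0.404% higher in B6.MRLc1. An unadjusted p under 0.05 was reached by 4 of the 7 members, Il1a, Il1r1, Il1r2 and Il6ra, and by 20.3% of all genes. The groups did not overlap for these 4 members, each lower in B6.MRLc1, against 13.8% of all genes with such a gap in that direction. Since Il1a had passed the filter through B6 alone, the count was also taken for the genes that all 6 arrays measured well above background. There it was 3 of 5 members, against 11.8% of 22053 genes. No member was higher in B6.MRLc1 without overlap, against 14.8% of all genes tested. With other settings the calls among members were 0 with quantile normalization, with no filter, with a floor or a stricter filter on dim values and with the deposited values, with 3 or 4 members at an unadjusted p under 0.05 in limma, and also 0 with every probe as its own row. Il1a and Il1b were not tested with the stricter filter or the deposited values, so those 0 counts do not retest the Il1a call. The calls among members were 2 with normexp background correction, where 2.42% of all genes were called lower, 2 with a variance trend (3.46%) and 3 with array weights (4.5%), all lower in B6.MRLc1. The median difference of the 7 members was -0.77 on the log2 scale, against 0.02 for all genes, and -0.43 over the same members with normexp.

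Il1r2, the decoy receptor, had the widest gap between the strains among the 7 members tested. Its log2 signal was -3.06, -2.99 and -2.99 on B6.MRLc1 arrays 1, 2 and 3, against -0.40, -1.03 and -1.89 on B6 arrays 1, 2 and 3. The B6.MRLc1 arrays were close together and all lay at least 1.09 below the lowest B6 array, while the B6 arrays themselves spanned 2.81-fold. The mean was -3.01 ± 0.04 for B6.MRLc1 and -1.11 ± 0.75 for B6 (SD, n = 3 each). The fitted difference was -1.91 (SE 0.36), or 3.75-fold lower in B6.MRLc1, with a limma adjusted p of 0.0608, which missed the threshold. With normexp, which draws dim values together, the difference was -1.30 and passed (limma adjusted p = 0.0449). Of the genes well above background on all arrays, 0.249% had a difference as low as that of Il1r2, and 0.544% had an SD as large within B6.

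Il1r1, the signalling receptor, was well above background on every array. Its log2 signal was 2.34, 2.35 and 2.21 on B6.MRLc1 arrays 1, 2 and 3, against 3.77, 3.28 and 2.46 on the corresponding B6 arrays. The groups did not overlap, but B6 array 3 lay only 0.12 above the highest B6.MRLc1 array. The mean was 2.30 ± 0.08 for B6.MRLc1 and 3.17 ± 0.66 for B6 (SD, n = 3 each). The difference of -0.87 (SE 0.32), or 1.83-fold lower in B6.MRLc1, did not pass (limma adjusted p = 0.215). The SD within B6 was matched or exceeded in 0.857% of genes well above background on all arrays, whereas 55.8% of them had an SD within B6.MRLc1 as large as that of Il1r1.

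Il6ra, the ligand-binding chain of the interleukin 6 receptor, was well above background on all arrays. Its log2 signal was 2.24, 2.14 and 2.14 on B6.MRLc1 arrays, against 2.74, 2.65 and 2.46 on B6 arrays. All B6 arrays were above all B6.MRLc1 arrays, by at least 0.22. The mean was 2.17 ± 0.06 for B6.MRLc1 and 2.62 ± 0.15 for B6 (SD, n = 3 each). The difference was -0.44 (SE 0.09), or 1.36-fold lower in B6.MRLc1, and missed the threshold (limma adjusted p = 0.0663). With normexp it was -0.43 and passed (limma adjusted p = 0.0472). Il6 itself read -7.32 to -6.55 on B6.MRLc1 arrays and -7.79 to -7.23 on B6 arrays, none well above background, so no fold is given.

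The alarmin Il33, a nuclear protein of barrier and stromal cells that is released on damage, measured -2.21, -1.98 and -2.16 on B6.MRLc1 arrays, against -1.02, -0.97 and -2.16 on B6 arrays. B6 arrays 1 and 2 lay above all B6.MRLc1 arrays, while B6 array 3 lay within their range. The difference was -0.74 (SE 0.33) and did not pass (limma adjusted p = 0.285, n = 3 each). Its receptor Il1rl1 measured -1.77, -1.50 and -2.03 on B6.MRLc1 arrays, against -1.02, -1.03 and -1.13 on B6 arrays. For Il1rl1 no array of one strain overlapped the other, and the difference was -0.70 (SE 0.14; limma adjusted p = 0.064). It passed with normexp, at -0.55 (limma adjusted p = 0.035).

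Il18, a relative of interleukin 1 that is made as a precursor, measured 0.10, 0.31 and 0.13 on B6.MRLc1 arrays, against 0.13, 0.13 and -0.01 on B6 arrays. The strains overlapped, and the difference was 0.10 (SE 0.08; limma adjusted p = 0.526, n = 3 each). The gene of its soluble inhibitor, Il18bp, also overlapped, with a difference of -0.25 (SE 0.15; limma adjusted p = 0.421).

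Il1a, which encodes interleukin 1 alpha, was close to background. Its log2 signal was -5.17, -5.62 and -5.17 on B6.MRLc1 arrays, none well above background, against -4.54, -4.45 and -4.47 on B6 arrays, all well above it. The groups did not overlap, and the difference was -0.83 (SE 0.14; limma adjusted p = 0.0451, n = 3 each). Because no B6.MRLc1 array measured the probe well above background, only a bound is given. On the processed signal this bound was 1.32-fold, higher in B6, and it is not a measured fold or a certain minimum. That bound sets the B6 mean against the mean of, per B6.MRLc1 array, the probe's own value or the lowest signal well above background, whichever was higher. This lowest signal was -4.49, -5.01 and -5.31 on B6.MRLc1 arrays 1, 2 and 3, and -5.68 to -5.76 on B6 arrays, so a signal at the B6 level of Il1a would lie about at the limit of B6.MRLc1 array 1. With normexp the difference was -0.0065 (limma adjusted p = 0.958), and the call was lost without any 1 of the 6 arrays (limma adjusted p = 0.0558 to 0.152).

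Il1b, which encodes interleukin 1 beta, varied more within each strain than between strains. Its mean over spots was -3.73, -4.02 and -5.90 on B6.MRLc1 arrays, against -3.28, -3.03 and -5.04 on B6 arrays. Array 3 was the low one in both strains, and on B6.MRLc1 array 3 the probe was not well above background. The spots of 1 array lay close together, with an SD over the 7 to 10 spots used of 0.10 to 0.46, so the gap between arrays was larger than the spread between spots. The mean was -4.55 ± 1.18 for B6.MRLc1 and -3.78 ± 1.10 for B6 (SD, n = 3 each), and the difference of -0.77 (SE 0.77) did not pass (limma adjusted p = 0.609). Without B6 replicate 3 it was -1.40 and without B6.MRLc1 replicate 3 it was -0.09, neither of which passed.

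On the B6.MRLc1 arrays 0 of the 8 to 10 Tnf spots used were well above background. On B6 arrays 1, 2 and 3 these were 9 of 9, 8 of 10 and 0 of 10 spots. The mean over spots was -6.16, -5.99 and -6.32 on B6.MRLc1 arrays, against -4.81, -5.11 and -6.09 on B6 arrays. B6 array 3 thus lay just below the highest B6.MRLc1 array. When no filter was applied, the difference was -0.82 (SE 0.35; limma adjusted p = 0.25, n = 3 each), and with normexp and no filter it was -0.02. No fold is given, since the bound is under 1. Il1rn, the antagonist, was not well above background on any array, at -6.93 to -5.96 on B6.MRLc1 arrays and -7.68 to -5.42 on B6 arrays.

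**Figure D2:**
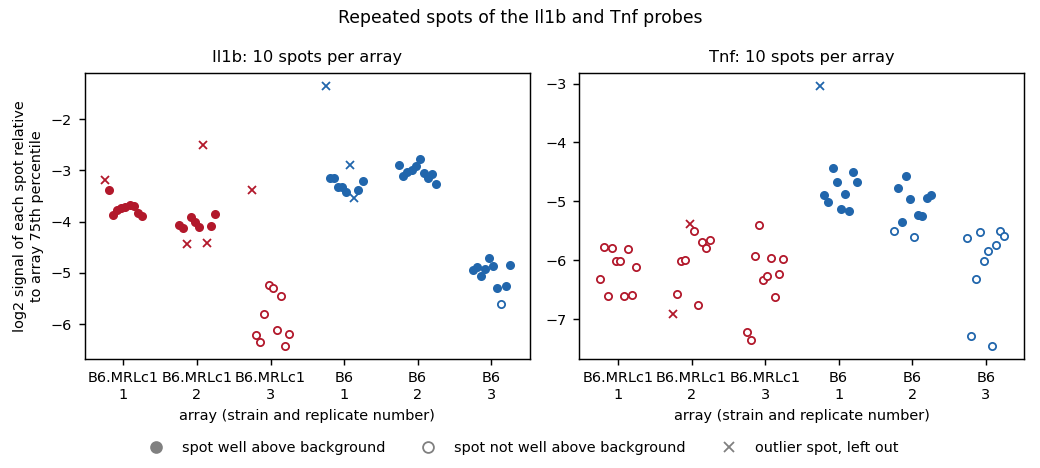
Log2 signal, over the array's 75th percentile, of each of the 10 spots of the Il1b probe (left) and the Tnf probe (right) on the B6.MRLc1 arrays (red) and the B6 arrays (blue). Filled circles are spots well above background, open circles are not, and crosses are outlier spots that were left out. The Il1b spots used on array 3 lie lower than those used on arrays 1 and 2 in both strains, and Tnf spots well above background occur on B6 arrays 1 and 2.

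Within B6, array 3 tended to give the lowest values in these genes, by gaps of unlike size. It was the lowest B6 array for 6 of the 7 members tested, Il1a being the exception, against 31.3% of all genes. The highest of all 6 arrays was B6 array 1 or 2 for 6 of the 7, the exception being Il18, against 30.3% of all genes. The median SD of the 7 members was 0.11 within B6.MRLc1 and 0.66 within B6, against 0.098 and 0.113 over all genes. The SD was the larger one in B6 for 4 of the 7 members and for 54.1% of all genes. Without B6 replicate 3, limma called 4 members, all lower in B6.MRLc1. For these 4 members B6 array 3 was the lowest B6 array, so leaving it out widens their differences by construction. The differences were -1.12 for Il33 (adjusted p = 0.0278), -2.30 for Il1r2 (0.0288), -1.22 for Il1r1 (0.0482) and -0.52 for Il6ra (0.0485). In that fit 1.58% of all genes were called lower. Leaving out any 1 of the other 5 arrays gave 0 called members by limma, with 3 at an unadjusted p under 0.05 in each. Of all 25276 genes, those 5 fits called 50 to 318, with 3614 to 4385 at an unadjusted p under 0.05.

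**Figure D3:**
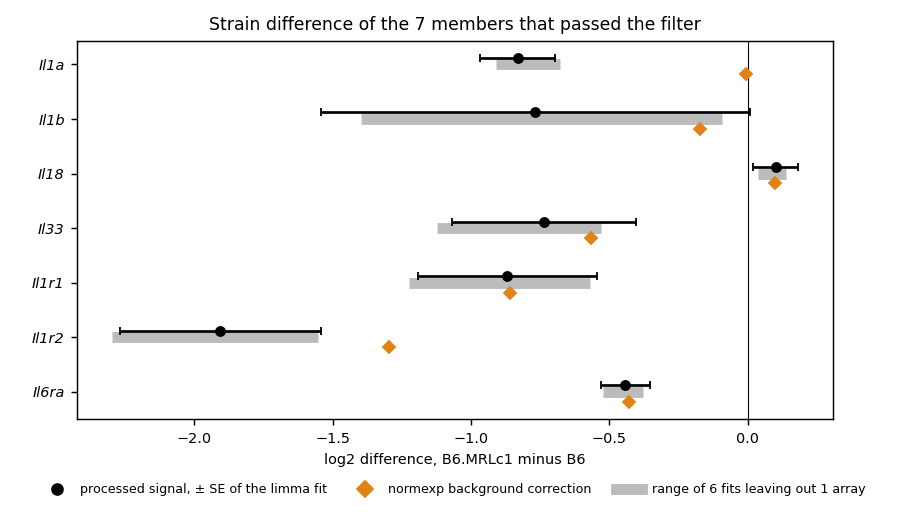
Log2 difference, B6.MRLc1 minus B6, of the 7 members that passed the filter (3 arrays each strain). Black circles with bars are the limma estimate ± SE, orange diamonds the estimate with normexp background correction, and grey bands the range of the 6 fits that left out 1 array. Il1r2 lies farthest from 0, and the normexp values of Il1a and Il1b lie close to 0.

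The windows of 250 bases before the annotated start are shown for Il1a, the called ligand, and for the 2 interleukin 1 receptors on chromosome 1, whose highest value was on B6 array 1. They are RefSeq sequences in build GRCm38.p6, in the direction of the gene, with matches to a searched motif in capitals. The motifs were TGACTCA for the factor AP-1, TATAAA for the TATA box and the NF-kappaB consensus, each on both strands.
Il1a, chr2:129309973-129310222 (-): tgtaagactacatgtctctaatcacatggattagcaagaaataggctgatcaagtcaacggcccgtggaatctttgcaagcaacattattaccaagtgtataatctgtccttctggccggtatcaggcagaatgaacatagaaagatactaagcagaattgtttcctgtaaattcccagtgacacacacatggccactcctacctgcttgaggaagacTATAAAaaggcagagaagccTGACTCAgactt
Il1r2, chr1:40085843-40086092 (+): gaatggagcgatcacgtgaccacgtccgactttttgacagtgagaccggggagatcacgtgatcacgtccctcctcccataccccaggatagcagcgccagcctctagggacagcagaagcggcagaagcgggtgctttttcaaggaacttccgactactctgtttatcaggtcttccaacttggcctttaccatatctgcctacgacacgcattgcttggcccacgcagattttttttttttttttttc
Il1r1, chr1:40266336-40266585 (+): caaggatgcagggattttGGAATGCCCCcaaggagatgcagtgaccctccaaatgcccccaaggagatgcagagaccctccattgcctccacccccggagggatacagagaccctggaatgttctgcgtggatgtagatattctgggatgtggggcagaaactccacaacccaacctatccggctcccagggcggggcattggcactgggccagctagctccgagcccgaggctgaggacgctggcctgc
In Il1a the capitals mark a TATA box at -32 to -27 and an AP-1 match at -12 to -6, both on the strand of the gene and counted from the start. In Il1r1 they mark an NF-kappaB match on the opposite strand at -232 to -223, in the window of the downstream of its 2 starts in the table. The Il1r2 window and that of the other Il1r1 start held none of the 3. Over the 14 windows of all 10 members, 3 held the AP-1 motif, 6 the TATA box letters and 2 the NF-kappaB consensus. Of the 6, the matches in Il18 (-175 to -170, opposite strand) and in 1 Il33 window (-203 to -198) lie far from the start. Of all 32851 windows of this length, 4.46% held the AP-1 motif, 12.4% the TATA box and 7.25% the NF-kappaB consensus.

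Other genes of the same pathways were given by 7 lists with 127 genes, of which 106 were tested. Of these, 2 were called, 1 lower and 1 higher in B6.MRLc1, with 22 of 31 genes at an unadjusted p under 0.05 lower. The median difference of the 106 genes was -0.07 on the log2 scale, against 0.02 for all genes. Both calls fell in the list of induced genes, and were those of Timp1 and Orm1. Both were lost without any 1 of the 5 arrays other than B6 replicate 3, and kept without B6 replicate 3 (limma adjusted p = 0.0263 for Timp1 and 0.0282 for Orm1). Over all alternatives the limma adjusted p was 0.0152 to 0.158 for Timp1 and 0.0152 to 0.141 for Orm1.

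Of 24 genes of the interleukin 6 family and its signalling, 0 were called by limma and 7 had an unadjusted p under 0.05, and the list's median difference was 0.03. Osmr, a receptor chain of oncostatin M, measured 0.51, 0.55 and 0.24 on B6.MRLc1 arrays, against 1.75, 1.49 and 0.93 on B6 arrays. B6 array 1 was the highest and B6 array 3 the lowest of B6, as for Il1r1 and Il1r2. Its difference of -0.96 (SE 0.22) missed the threshold (limma adjusted p = 0.0911) but passed with normexp at -0.93 (adjusted p = 0.0469). Pim1, a kinase gene induced by this pathway, had a difference of 0.38 (limma adjusted p = 0.0774). Il6st, the shared signalling chain, had a difference of -0.08 (SE 0.07; limma adjusted p = 0.543), and was named after its value was seen.

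Of 17 tested genes that interleukin 1, interleukin 6 or TNF are known to induce, 1 was called lower and 1 higher. The median difference of this list was -0.12 (-0.06 with normexp). Timp1, an inhibitor of matrix metalloproteinases, measured 3.41, 3.37 and 3.23 on B6.MRLc1 arrays, against 4.59, 4.44 and 3.97 on B6 arrays. It was 1.99-fold lower in B6.MRLc1, a difference of -0.996 (SE 0.17; limma adjusted p = 0.048, n = 3 each), with no overlap. Orm1, an acute phase protein gene, went the other way, with -2.15, -2.46 and -2.72 on B6.MRLc1 arrays, against -4.60, -4.83 and -3.77 on B6 arrays. The difference was 1.96 (SE 0.30; limma adjusted p = 0.0409), and 1.00 with normexp.

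The chemokine gene Cxcl1, which encodes an attractant of neutrophils, showed the same arrangement of arrays as Il1r2. It measured -3.46, -3.44 and -3.44 on B6.MRLc1 arrays, against -0.59, -1.31 and -2.28 on B6 arrays. The strains did not overlap, and the difference of -2.05 (SE 0.41), or 4.15-fold lower in B6.MRLc1, missed the threshold (limma adjusted p = 0.0663). It was called without B6 replicate 3 (limma adjusted p = 0.0298), but not without any other single array (limma adjusted p = 0.116 to 0.2). Cxcl5, a chemokine gene of the same kind that was named after its values were seen, passed the background flag on 0 of the B6.MRLc1 arrays, and measured 0.17, -2.25 and -3.92 on B6 arrays (limma adjusted p = 0.106). Lcn2, an iron-carrier binding protein of innate immunity, had a difference of -0.33 (limma adjusted p = 0.0787). A further 8 genes of the list, Cxcl2, Ccl20, Sele, Ptgs2, Csf2, Csf3, Mmp3 and Mmp9, were not well above background on any array.

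None of the remaining lists held a gene called by limma; with the interleukin 6 family counted in, 25 of 89 tested genes of these 6 lists had an unadjusted p under 0.05. In the other genes of the interleukin 1 family 5 were tested, with a median difference of -0.08 (0.04 with normexp), and 7 were not well above background on any array. The list of cytokine processing and the inflammasome had 13 tested genes and a median of -0.21 (-0.07 with normexp). In it Casp4, an inflammatory caspase, had a difference of -0.77 (limma adjusted p = 0.138) and Gsdmd, which forms the pore for release of interleukin 1 beta, one of -0.46 (0.129). Both had no overlap between strains and were called without B6 replicate 3, with limma adjusted p = 0.0402 for Casp4 and 0.0454 for Gsdmd. Neither was called without any other single array (limma adjusted p = 0.239 to 0.334 for Casp4 and 0.233 to 0.329 for Gsdmd).

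Among 16 genes of interleukin 1 receptor signalling the median difference was 0.02. Irak3, an inhibitor of this signalling, had a difference of -0.37 (limma adjusted p = 0.0551), and Traf6, the ubiquitin ligase of the pathway, one of 0.31 (0.0637). Both had no overlap between strains, and they lay in opposite directions. For TNF ligands, receptors and signalling 19 genes were tested with a median of -0.09, and Tnfaip2 and Ripk3, a TNF-induced gene and a kinase of necroptosis, had differences of -0.65 and -0.41 (limma adjusted p = 0.0657 and 0.0674). For NF-kappaB subunits and inhibitors 12 genes were tested with a median of -0.05. The subunit gene Nfkb2 had a difference of -0.36 (limma adjusted p = 0.0674) and its partner Bcl3 one of -0.58 (0.169).

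**Figure D4:**
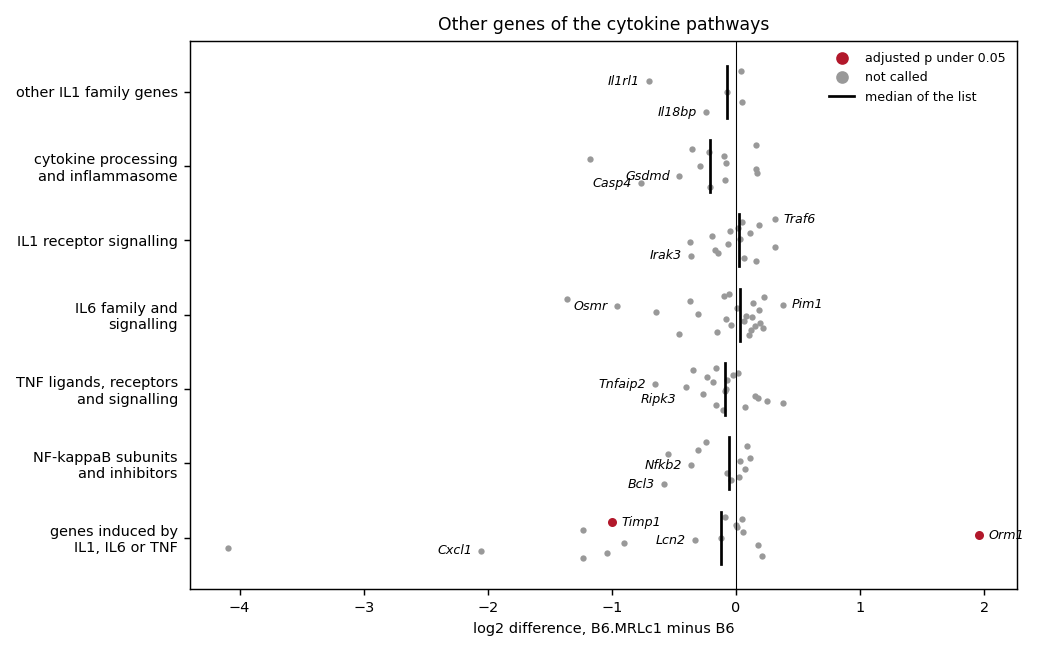
Log2 difference, B6.MRLc1 minus B6, of the 106 tested genes of the 7 pathway lists (rows), 1 dot per gene. Red dots are genes called at an adjusted p under 0.05, grey dots are not called, black bars are list medians, and names are given for called genes and the 2 others with the smallest p in each list. Timp1 is called on the lower side and Orm1 on the higher side.

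Markers of other cells also varied over the arrays. Of 8 neutrophil markers 4 were tested and 0 called by limma (1 at an unadjusted p under 0.05). The median difference of these markers was -0.85 (-0.35 with normexp). Their score, the median over genes of the log2 signal minus the gene's mean, was 0.05, -0.52 and -0.49 on B6.MRLc1 arrays, against 0.94, 0.25 and 0.01 on B6 arrays. The summed level relative to the 75th percentile was 126.1 to 147.2 in B6.MRLc1 and 113.6 to 143.6 in B6. Csf3r made up 99.1% of it, and without Csf3r the sum was 0.95 to 1.04 in B6.MRLc1 and 1.03 to 1.92 in B6. Of the defining markers, Ngp was not well above background on any array, and S100a8, Mpo and Ltf were so on 0 B6.MRLc1 and 2 B6 arrays. Csf3r measured 7.19, 6.97 and 7.15 on B6.MRLc1 arrays, against 6.80, 7.02 and 7.16 on B6 arrays, a difference of 0.11, and Elane had a difference of -0.02 with overlap. S100a9 measured -3.64, -7.34 and -7.62 on B6.MRLc1 arrays, against -1.45, -2.51 and -5.02 on B6 arrays, and Ly6g measured -4.04, -4.39 and -4.37 on B6.MRLc1 arrays, against -1.70, -2.91 and -3.16 on B6 arrays. B6 array 1 was the highest in Il1r2, Il1r1, Cxcl1, S100a9 and Ly6g, but the lowest in Csf3r, and the part of neutrophil content in the differences was not tested.

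All 10 macrophage markers were tested and 0 called by limma, with a median difference of -0.17. The 1 marker at an unadjusted p under 0.05, Cx3cr1, ran against that median, with a difference of 0.79 and no overlap (limma adjusted p = 0.143). Their score was -0.05, -0.10 and -0.06 on B6.MRLc1 arrays, against 0.33, 0.09 and -0.21 on B6 arrays, and their summed level was 80.2 to 91.6 in B6.MRLc1 and 77.5 to 99.4 in B6. All 12 spermatid markers were tested. Of these, 3 were called lower in B6.MRLc1 and 11 had an unadjusted p under 0.05, with 11 lower without overlap. Their median difference was -1.98, and -0.49 with normexp, and 0 to 5 were called when 1 array was left out. The 7 adipocyte markers tested had a median of 1.06 and 0 calls by limma (5 at an unadjusted p under 0.05). The spermatid score was -1.31, -1.36 and -0.44 on B6.MRLc1 arrays, against 1.65, 0.77 and 0.64 on B6 arrays. The adipocyte score was -0.00085, 1.06 and 0.47 on B6.MRLc1 arrays, against -1.10, -0.26 and -0.24 on B6 arrays. Medians of the T cell, endothelial, Leydig, Sertoli and peritubular myoid lists were 0.09, -0.10, 0.29, 0.13 and 0.17, and none of these held a gene called by limma (9 of 37 at an unadjusted p under 0.05). Of 8 spermatocyte markers 1 was called lower (median -0.12), of 7 spermatogonium markers 0 were called (0 at an unadjusted p under 0.05; median 0.06), and of 3 red cell markers tested 1 was called lower (median 0.14). Of the epididymis markers 2 were tested and 0 called by limma (2 at an unadjusted p under 0.05), with a median of -0.05 (0.11 with normexp), while Lcn5, Lcn8, Crisp1 and Defb1 were not well above background on any array. The part of germ cell and fat content in the members' differences was not tested.

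**Figure D5:**
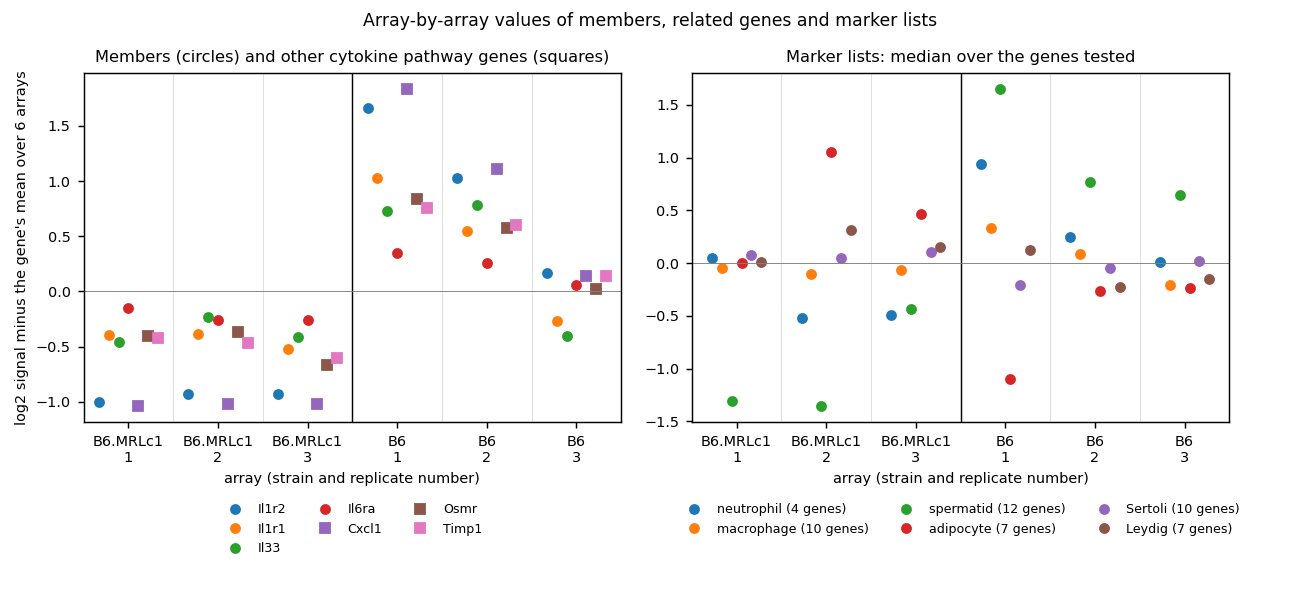
Left, log2 signal minus the gene's mean over the 6 arrays for 4 members (circles) and 3 other genes of the pathway lists (squares), and right, the median of the same quantity over the genes of 6 marker lists, by array, with B6.MRLc1 left of B6. The genes on the left are a selection that shares 1 pattern: all B6.MRLc1 values lie below 0 and B6 arrays 1 and 2 lie above B6 array 3. Among the genes not shown, Orm1, Pim1, Traf6 and Il18 had fitted differences above 0. On the right the neutrophil score is highest on B6 array 1, at 0.94.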

How the data were processed

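Total RNA of whole testis was labelled with Cy3 and hybridised to one-colour Agilent arrays, per the labels' protocols. The authors deposited linear intensity values per spot, background-subtracted per the file headers and not scaled between arrays, with flags of 0 or 1 for well above background, saturation and outliers, and a series table of log2 values. How those log2 values were made is not stated in the labels. Against the scanner values, at least 99.9% of that log2 table in each column lay within 0.05 of the signal scaled here and centred on each probe's median; it was used only as an alternative. Its column medians were 0.0047, 0.0099 and 0.0161 for B6.MRLc1 arrays 1 to 3 and -0.003, -0.0041 and 0.0144 for B6 arrays 1 to 3. The headers name Feature Extraction 10.7.3.1 and the submitters' processing notes 9.5.3.

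Each array's processed intensity was divided by its 75th percentile and put on the log2 scale, without control spots and outlier spots, and spots of a probe were averaged. Probes with values on at least 4 arrays and over 0.5 of their spots well above background on at least 3 arrays were kept (36627 of 55681), and the probe with the highest mean was tested per gene. Gene names came from the array's accession or symbol through a RefSeq table; all 10 members kept their name. The strains were fitted over 25276 genes in R 4.3.3 by limma 3.58.1 (lmFit, eBayes) and p-values adjusted by Benjamini-Hochberg; the fit was tested on simulated data. Per the design text there were 3 testes of each strain; each array was taken as 1 mouse. The number of arrays, 6, limits the precision.

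Text names cover the 10 members, every called gene of the pathway lists and the 2 others with the smallest p in each list; any other name was added after its value was seen. A gene of the lists is not reported here and was left out of their counts. The members and lists were chosen with earlier results of these data known. The alternatives were background correction by normexp (offset 50), scaling, filter, probe choice, variance trend, array weights, a replicate block, leaving out each array, and the deposited log2 table.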

Additional observations from a re-analysis of the deposited data

How the results depend on the processing

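No difference of the 7 members tested or the 16 named pathway genes changed direction under the alternatives run. The medians of the other interleukin 1 family genes and of the epididymis markers did with normexp, to 0.04 and 0.11, against -0.08 and -0.05. Over 129 refits of the 7 members, 105 stayed on the same side of the threshold, 14 no longer passed and 10 newly passed. All 14 were of Il1a, the called member, which was called in only 3 of its 17 alternatives. For the 16 named pathway genes the counts over 304 refits were 253, 17 and 34. All 17 were of the called genes Orm1 and Timp1, which were called in 12 and 9 of 19 alternatives.

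The number of members called, 1, became 2 with normexp or with a variance trend (Il1r2 and Il6ra in each) and 3 with array weights (Il1a, Il1r2 and Il6ra). It became 0 with quantile normalization, with dim values raised to a floor, with no filter, with the filter set to all 6 arrays, with every probe as its own row and with the deposited values, with 3 or 4 members at an unadjusted p under 0.05 in limma where 1 probe stood for a gene. With the filter set to all 6 arrays and with the deposited values, Il1a and Il1b were not tested. Leaving out 1 array gave 0 to 4 members, the 4 without B6 replicate 3. Normexp with no filter, an alternative chosen after seeing the data, gave 0 members and moved their median difference, then over all 10, to -0.10, against -0.77 as reported and -0.43 with normexp alone over 7; dim values are drawn together by its offset.

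The number of all genes called, 664, became 50 with no filter, 1202 with a variance trend and 1644 with array weights, and 50 to 486 without 1 array. These were 83, 58 and 318 without B6.MRLc1 replicates 1, 2 and 3, and 50, 169 and 486 without B6 replicates 1, 2 and 3. The 2 other pathway genes called became 8 with normexp, 5 with normexp and no filter (Aim2, Il1rl1, Orm1, Timp1 and Tnfaip2), 0 with no filter, 12 with a variance trend and 14 with array weights, and 1 (Orm1) with quantile normalization, with dim values raised to a floor and with every probe as its own row. Without 1 array they were 0 to 10, the 10 without B6 replicate 3. The cause of these changes was not tested.

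Replicate numbers are shared between the strains and equal the slide column. Deviations from the strain means of same-numbered arrays correlated at -0.044, 0.172 and 0.0877 over 25271 genes, so the numbers were not taken to pair the samples, although arrays of each number correlated best with their own number for numbers 2 and 3. With the replicate block limma called 0 genes, 0 members and 0 other pathway genes, while 4866, 5 and 32 had an unadjusted p under 0.05.

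Signal over background limits Il1a, Il1b, Tnf, Il6 and Il1rn, for which at least 1 array was not well above it.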
